A study of Mus musculus with 20 samples.

Results

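Cells take up iron through a small set of membrane proteins, and the 6 genes described here encode the main ones: the transferrin receptor (Tfrc), the divalent metal transporter DMT1 (Slc11a2), the ZIP family transporters ZIP14 (Slc39a14) and ZIP8 (Slc39a8), and the metalloreductases Steap3 and Steap4. They were chosen by name, and all 6 were among the 23420 genes of the count table. All 6 also passed the filter on low counts that left 13590 genes to be tested, namely a level of 1 CPM (counts scaled to the depth of the library) or more in 10 mice or more.

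The hearts came from 20 male wild type C57BL/6 mice (C57BL/6J in the study's methods) killed at 9 weeks of age. From 3 weeks of age, 10 mice were fed a control diet and 10 an iron-deficient diet for 6 weeks, and the latter are called IDA (iron-deficiency anemia) mice. The labels give the iron content of the deficient diet relative to 2 ppm, as below it in one field and above it in another. The study's methods give it as a narrow range that starts at 2 ppm. They describe the control diet as iron-adjusted, with a much higher iron content. RNA was extracted from pulverized whole heart, selected for poly-A tails and sequenced as read pairs. Each mouse gave 1 library, so that the replicates are animals. In the study 1 library per diet was set aside as contaminated, and since the labels do not say which, both are among the 10 per diet described here.

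Most iron in plasma is bound to transferrin, which is taken up with the transferrin receptor into endosomes, where a STEAP reductase turns ferric into ferrous iron and DMT1 carries it into the cytosol. ZIP14 and ZIP8 take up iron that is not bound to transferrin, and they also carry zinc and manganese. When a cell is short of iron, iron regulatory proteins bind to iron-responsive elements, short hairpins with a 6-base loop, in the 3′ untranslated region (UTR) of the Tfrc mRNA and slow its decay, and 1 form of the Slc11a2 mRNA holds such an element too.

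The iron-responsive elements are shown because they set Tfrc and Slc11a2 apart from the other members. Each member was searched in the 3′ UTRs of all its coding transcripts with a complete end (GENCODE vM21, GRCm38, the same assembly as mm10). The pattern was C, 5 bases, a loop of CAGAGN or CAGTGN, and 5 bases that pair with the first 5, with G-T pairs allowed. Tfrc held 5 such sites within its 2458-base 3′ UTR, in the last exon on chromosome 16, plus strand. Capitals mark the loop. They lie at chr16:32631160-32631189, chr16:32631219-32631248, chr16:32631598-32631627, chr16:32631663-32631692 and chr16:32631710-32631739, in this order:
Tfrc site 1: atttatcagtgaCAGAGTtcactataaata
Tfrc site 2: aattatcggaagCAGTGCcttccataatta
Tfrc site 3: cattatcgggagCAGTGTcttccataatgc
Tfrc site 4: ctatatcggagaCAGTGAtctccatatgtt
Tfrc site 5: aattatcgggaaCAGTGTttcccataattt
Slc11a2 held 1 site, at chr15:100395152-100395181 on the minus strand, when 1 unpaired base was allowed after the loop:
Slc11a2 site: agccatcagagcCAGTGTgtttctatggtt
The other 4 members held neither form. Of 20947 genes with a 3′ UTR, each searched in its longest 3′ UTR alone, 1.14% held the strict form and 2.02% the form with the unpaired base. A match to these letters is therefore a description and not a tested element.

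In the hearts of IDA mice, 4 of the 6 members differed from control at an adjusted p below 0.05 (edgeR quasi-likelihood test, Benjamini-Hochberg over all tested genes). Tfrc and Steap3 were higher and Slc39a14 and Steap4 were lower, whereas Slc11a2 and Slc39a8 did not pass the test. Calls were common in these hearts: 35% of all tested genes were called higher and 32.5% lower, and the 2 of 6 members called in each direction are to be read against these shares. The CPM of the diets did not overlap for 11.3% of tested genes and for 0 of the 6 members.

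Fold changes in this data set followed gene length, and this bears on every member. The median log2 fold change of all tested genes was 0.02, but over 10 equal classes of exonic length it went from 0.34 in the shortest class to -0.53 in the longest. Tfrc (4914 bp), Slc39a14 (5208 bp) and Slc11a2 (5635 bp) lie in the ninth class, from 4823 to 6329 bp, whose median was -0.32. Slc39a8 (3707 bp) lies in the seventh, with a median of -0.12. Steap3 (3177 bp) and Steap4 (3140 bp) lie in the sixth, with a median near 0 (0.00093). The comparison of the diets over all mice was therefore also made with the length trend of every mouse removed. The fits described below within runs of column numbers, or with the run or library size as a covariate, were made without this correction. With the length trend removed, 31.5% of tested genes were called higher and 23.5% lower over all mice. The members called were Tfrc, Slc11a2 and Steap3 as higher and Steap4 as lower. Tfrc, Steap3 and Steap4 kept their call and direction in both fits, Slc11a2 gained a call, and Slc39a14 lost its call and changed sign. The cause of the length trend was not tested.

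**Figure D1:**
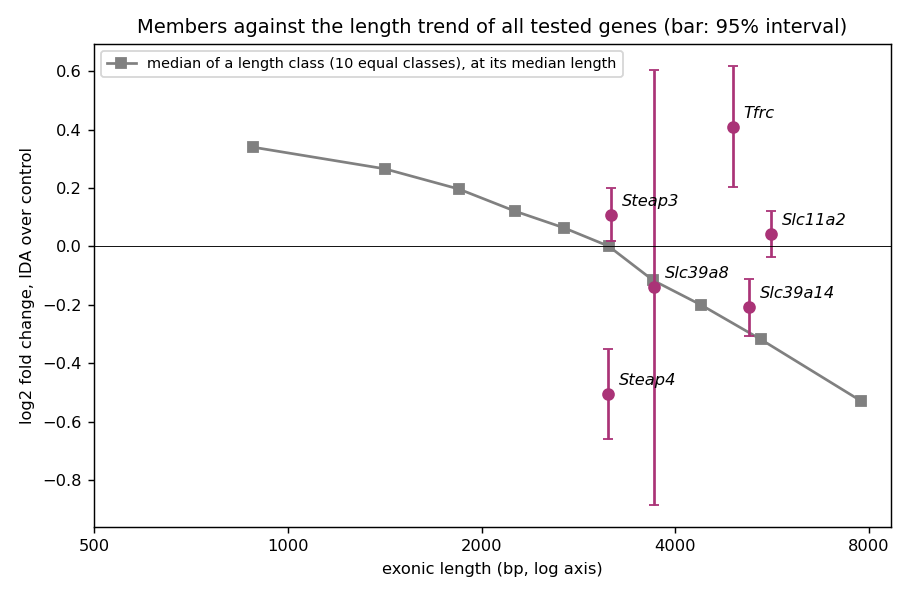
Log2 fold change (IDA over control) of the 6 members, with 95% intervals, against exonic length in bp on a log axis. Grey squares are medians of 10 length classes of the 13590 tested genes, placed at the median length of each, and fall from 0.34 to -0.53. Tfrc and Slc11a2 lie above this trend at 0.41 and 0.04, and Steap4 lies below it at -0.50.

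Tfrc, the receptor that binds iron-loaded transferrin, lies at chr16:32608896-32632794 (mm10, plus strand, 19 exons). In control hearts it ranged from 200 to 350.5 CPM with a median of 254.2 CPM, and in IDA hearts from 290 to 434 CPM with a median of 370 CPM. Every IDA mouse exceeded the mean of the controls, and 6 were above the highest control mouse, so that the diets overlapped. The means were 272 ± 53.8 and 362 ± 51.8 CPM (SD, n = 10 each). The log2 fold change was 0.41 (SE 0.10, 95% interval 0.20 to 0.62, adjusted p = 0.00104), or 1.33-fold. With the length trend removed it was 0.69 (SE 0.096, 95% interval 0.50 to 0.89, adjusted p = 4.09e-06), or 1.62-fold, and with trends on length and GC content removed it was 0.94.

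The library columns carry numbers that fall into a lower run (5 control and 7 IDA mice) and a higher run (5 control and 3 IDA mice), whose meaning is not given in the sources used here. Tfrc in control mice ranged from 243.9 to 350.5 CPM in the lower run and from 200 to 259 CPM in the higher. In IDA mice it ranged from 290 to 434 CPM in the lower run and from 301 to 411 CPM in the higher. Within the lower run the log2 fold change of Tfrc was 0.24 (edgeR adjusted p = 0.062), and within the higher it was 0.56 (adjusted p = 0.00413). With the run as a covariate it was 0.37. The difference between the runs was not tested.

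Tfrc is also abundant in immature red cells, and markers of these cells moved with the diet. Of 15 erythroid genes listed, 12 were in the table and 4 were tested, and of these 3 were called higher and 1 lower, or 3 higher and 0 lower by edgeR with the length trend removed, beside 35% and 32.5%, or 31.5% and 23.5%, of all tested genes. Alas2, the first enzyme of heme synthesis in red cells, was among those that rose. The globin genes Hba-a1, Hba-a2 and Hbb-b2 were listed at 0 in all mice, and Hbb-b1 was near 0. The summed CPM of the erythroid list ranged from 111 to 170 in control and from 165 to 613 in IDA mice. A score, the mean log2 CPM of the 4 tested genes, ranged from 2.80 to 3.78 in control mice. In IDA mice it left a gap between 4.42 and 5.26. The 4 IDA mice below the gap had Tfrc levels of 383, 357, 405 and 301 CPM, and the 6 above it ranged from 290 to 434 CPM. The scores of all 10 IDA mice were above those of all control mice, and the part of erythroid cells in the level of Tfrc was not tested. Adding the score to the fit gave Tfrc a log2 fold change of 0.43 (edgeR adjusted p = 0.0299). Within control mice Tfrc and the score had r = -0.27 (permutation p = 0.47, n = 10) and rho = -0.22 (permutation p = 0.535), and r was 0.39 without the 2 mice farthest from the median score. Over the 6 IDA mice above the gap r was 0.30 (exact permutation p = 0.544, n = 6) and rho 0.09 (exact permutation p = 0.919), and r was 0.93 over the 4 mice left without the 2 farthest. Over the 12 such relations of members and score, the lowest adjusted p was 0.434. In bulk hearts, a change in the number of cells of a type and a change of RNA per cell cannot be told apart.

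**Figure D2:**
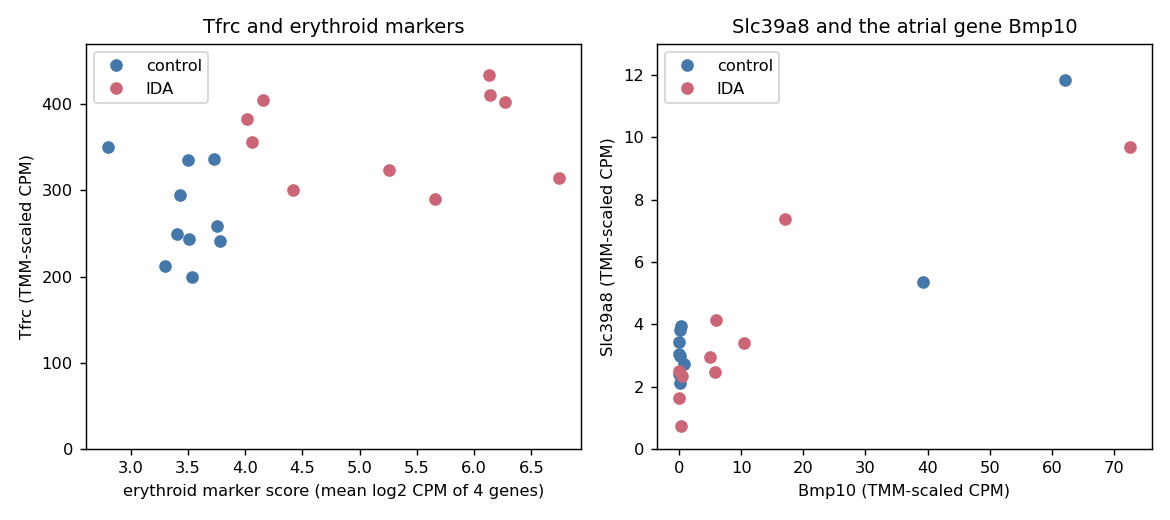
Left, Tfrc in CPM against the erythroid score (mean log2 CPM of 4 marker genes), 1 point per mouse. The IDA mice with scores up to 4.42 had Tfrc from 301 to 405 CPM, within the range of IDA mice with higher scores. Right, Slc39a8 against Bmp10, both in CPM, where the 4 mice with the highest Slc39a8 are also the 4 with the highest Bmp10.

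Slc11a2 encodes DMT1, which carries ferrous iron out of the endosome, and lies at chr15:100387900-100423055 (mm10, minus strand, 17 exons). In control hearts it ranged from 83.2 to 99.3 CPM with a median of 94.0 CPM, and in IDA hearts from 84.7 to 101 CPM with a median of 95.4 CPM. The ranges overlapped widely, with 8 of 10 IDA mice above the control mean and 4 above the highest control mouse. The means were 92.6 ± 4.44 and 95.4 ± 5.03 CPM (SD, n = 10 each), and the log2 fold change was 0.04 (SE 0.04, 95% interval -0.04 to 0.12, edgeR adjusted p = 0.325). With the length trend removed it was 0.40 (SE 0.05, adjusted p = 1.3e-06), and with length and GC trends removed 0.35 (adjusted p = 3.17e-06), so that the call for Slc11a2 depended on this correction. Within the lower run of column numbers it was 0.0035 and within the higher 0.06.

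The Slc11a2 counts pool mRNA forms that end in different last exons. The exon with the iron-responsive element spans chr15:100392658-100395323, 2666 bp or 47.3% of the exonic length counted, and the other last exon spans chr15:100387900-100389161, 1262 bp or 22.4%. The forms cannot be told apart in a count per gene.

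The ratio of Tfrc to Slc11a2 within each heart is free of the scaling to library size, although its relation to depth was not tested. Its log2 value ranged from 1.25 to 1.90 in control mice, with a mean of 1.53 ± 0.251 (SD, n = 10), and from 1.69 to 2.17 in IDA mice, with a mean of 1.91 ± 0.183 (SD, n = 10). Each of the 10 IDA mice exceeded the control mean, although the ranges overlapped. The difference of 0.38 (SE 0.098) had a two-sided permutation p of 0.00148, or 0.00222 adjusted over the 3 ratios examined, and with the length trend removed it was 0.31. Tfrc thus increased relative to Slc11a2, also where Slc11a2 itself was called higher.

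**Figure D3:**
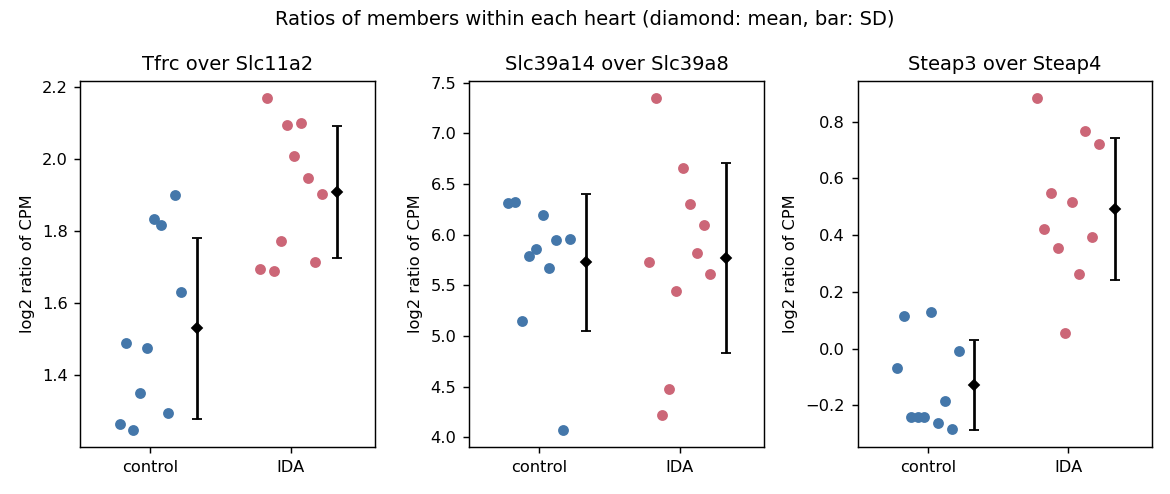
Log2 ratio of CPM of pairs of members within each heart, 10 mice per diet, with means (diamonds) and SD (bars). Tfrc over Slc11a2 moved from 1.53 to 1.91 and Steap3 over Steap4 from -0.13 to 0.49, whereas Slc39a14 over Slc39a8 was 5.73 and 5.77.

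Slc39a14 encodes ZIP14, the transporter best known for uptake of non-transferrin-bound iron by the liver, and lies at chr14:70303467-70351424 (mm10, minus strand, 12 exons). Control hearts ranged from 188 to 225 CPM with a median of 208 CPM, and IDA hearts from 147 to 205 CPM with a median of 183 CPM. All 10 IDA mice were below the control mean and 7 were below the lowest control mouse. The means were 208 ± 10.8 and 180 ± 16.2 CPM (SD, n = 10 each). The log2 fold change was -0.21 (SE 0.05, 95% interval -0.31 to -0.11, edgeR adjusted p = 0.000518), or 0.865-fold, and with the length trend removed it was 0.10 (SE 0.05, 95% interval 0.007 to 0.20, adjusted p = 0.0647). With length and GC trends removed it was 0.02 (adjusted p = 0.753). The lower level of Slc39a14 was thus seen against all genes but not against genes of its own length. It was called lower within both runs of column numbers, at -0.16 (adjusted p = 0.00947) and -0.34 (adjusted p = 0.0119).

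Slc39a8 encodes ZIP8, a close relative of ZIP14, and lies at chr3:135825491-135888572 (mm10, plus strand, 10 exons). It had the fewest counts of the members, at 5 to 95 per library. Control hearts ranged from 2.10 to 11.8 CPM with a median of 3.24 CPM, and IDA hearts from 0.739 to 9.69 CPM with a median of 2.73 CPM. The diets overlapped, although 2 IDA mice were below the lowest control mouse. The spread within each diet was wide: 4.16 ± 2.85 and 3.72 ± 2.75 CPM (SD, n = 10 each). The log2 fold change was -0.14 (SE 0.36, 95% interval -0.89 to 0.60, edgeR adjusted p = 0.743), an interval too wide to place the level of Slc39a8 in IDA hearts above or below control. Its direction depended on control replicate 9, the highest mouse: in 9 of 10 fits without this mouse and 1 IDA mouse, the value was above 0, at up to 0.31.

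The 4 mice with the highest Slc39a8 were control replicate 9 (11.8 CPM), IDA replicate 3 (9.69 CPM), IDA replicate 4 (7.37 CPM) and control replicate 3 (5.35 CPM). The same 4 mice had the highest Bmp10, a gene of the atrial wall in the adult heart, at 62.2, 72.6, 17.1 and 39.3 CPM in this order, against 0 to 10.5 CPM in the other 16. Of these 16, IDA replicates 10, 5, 9 and 8 came first, at 10.5, 6.00, 5.78 and 4.99 CPM. The control mice among them reached at most 0.744 CPM (replicate 6), so that Bmp10 was uneven between the diets. Bmp10 was chosen after the values of Slc39a8 had been seen, and the part of atrial tissue in the spread of Slc39a8 was not tested. Adding log2 Bmp10 to the fit gave Slc39a8 a log2 fold change of -0.57 (SE 0.22), and with the length trend removed as well -0.41. Since Bmp10 was picked for its match to Slc39a8 in these same mice, these fits cannot test the diet effect, and no call is taken from them. The log2 ratio of Slc39a14 to Slc39a8 was 5.73 ± 0.676 in control and 5.77 ± 0.935 in IDA mice (SD, n = 10 each), a difference of 0.04 (SE 0.36, two-sided permutation p = 0.90).

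**Figure D4:**
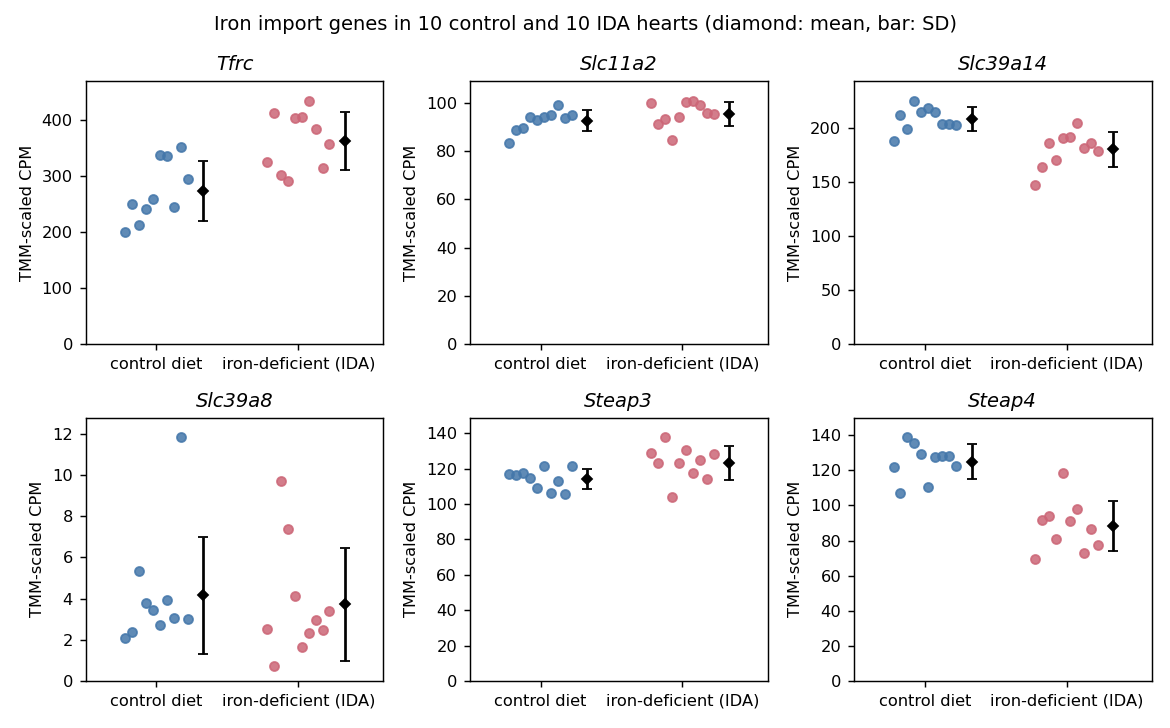
TMM-scaled CPM of the 6 members in each of 10 control and 10 IDA hearts, with means (diamonds) and SD (bars). Tfrc moved up from a mean of 272 to 362 CPM, Steap4 down from 125 to 88.1 CPM and Slc39a14 down from 208 to 180 CPM, while 4 mice stand above the others for Slc39a8.

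Steap3 encodes the reductase that acts on transferrin iron in the endosomes of erythroid precursors, and lies at chr1:120226416-120271082 (mm10, minus strand, 7 exons). Control hearts ranged from 105 to 122 CPM with a median of 115 CPM, and IDA hearts from 104 to 138 CPM with a median of 124 CPM. Of the IDA mice, 8 were above the control mean, 7 were above the highest control mouse and 1 was below the lowest. The means were 114 ± 5.69 and 123 ± 9.53 CPM (SD, n = 10 each). The log2 fold change was 0.11 (SE 0.04, 95% interval 0.02 to 0.20, edgeR adjusted p = 0.0336). With the length trend removed it was 0.19 (SE 0.05, adjusted p = 0.00175), but with length and GC trends removed it was 0.05 (adjusted p = 0.392). With the erythroid score as a covariate it was 0.21 (adjusted p = 0.0117), and 0.30 (adjusted p = 0.00145) with the length trend removed as well. The call of Steap3 was made in 43 of 100 fits that left out a mouse of each diet, in 0 of 10 without IDA replicate 3, the highest mouse, and in 10 of 10 without IDA replicate 4, the lowest. Steap3 was called within neither run of column numbers, at 0.08 (adjusted p = 0.281) and 0.17 (adjusted p = 0.0529), nor with library size as a covariate, at 0.09 (adjusted p = 0.155).

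Steap4, a reductase of iron and copper known from adipose tissue and inflammation, lies at chr5:7960472-7982213 (mm10, plus strand, 5 exons). In control hearts it ranged from 107 to 139 CPM with a median of 128 CPM, and in IDA hearts from 69.6 to 119 CPM with a median of 88.8 CPM. All 10 IDA mice were below the control mean, 9 were below the lowest control mouse, and IDA replicate 5 alone reached into the control range. The means were 125 ± 9.90 and 88.1 ± 14.2 CPM (SD, n = 10 each). The log2 fold change was -0.50 (SE 0.07, 95% interval -0.66 to -0.35, edgeR adjusted p = 4.13e-06), or 0.705-fold, and -0.44 (SE 0.07, adjusted p = 1.06e-05) with the length trend removed. Steap4 was lower within both runs of column numbers, at -0.47 (adjusted p = 0.00105) and -0.59 (adjusted p = 0.00408), and it was called lower under each of the 20 alternatives run, from -0.67 to -0.30 outside the fits that left out mice.

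Both STEAP genes have nearly the same length, and they moved apart. The log2 ratio of Steap3 to Steap4 ranged from -0.28 to 0.13 in control mice, with a mean of -0.13 ± 0.16 (SD, n = 10), and from 0.05 to 0.88 in IDA mice, with a mean of 0.49 ± 0.25 (SD, n = 10). Each of the 10 IDA mice exceeded the control mean, and the ranges overlapped only slightly. The difference of 0.62 (SE 0.094) had a two-sided permutation p of 2e-05, the smallest the resampling could give, or 6e-05 adjusted over the 3 ratios, and it was 0.63 with the length trend removed. With length and GC trends removed, the log2 fold changes of Steap3 and Steap4 were closer, at 0.05 and -0.30.

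Markers of cells and states in which Steap4 is expressed elsewhere were counted as well, beside 35% of all tested genes called higher and 32.5% lower, or 31.5% and 23.5% with the length trend removed. Of 7 pericyte genes, 3 were called higher and 3 lower, or 4 higher and 2 lower with the length trend removed (median log2 fold change -0.06 and 0.26), with a summed level of 1361 to 1677 CPM in control and 1048 to 1501 CPM in IDA mice. Of 4 tested adipocyte genes (6 listed), 0 were called by edgeR in either fit, and 0 had an unadjusted p below 0.05 without the length correction. The list summed to 5.33 to 47.7 CPM in control and 9.93 to 30.2 CPM in IDA mice. Of 7 tested macrophage genes (8 listed), 4 were called higher and 2 lower, or 3 higher and 1 lower with the length trend removed, with sums of 576 to 642 and 567 to 699 CPM. Of 3 tested neutrophil genes (6 listed), 3 were called higher, or 2 with the trend removed, with sums of 1.35 to 14.99 and 5.14 to 110 CPM. Of 4 tested genes of the acute phase (8 listed), 4 were called higher, or 2 with the trend removed, with sums of 38.2 to 54.3 and 45.5 to 121 CPM. The part of these cells in the level of Steap4 was not tested. The 6 cardiomyocyte genes summed to 2579 to 3355 CPM in control and 2748 to 3445 CPM in IDA mice, so that the defining genes of heart muscle were abundant in every library, although their calls are not used: duplicates had been removed, and counts were nearly the same in all 20 libraries whatever their depth, between 10013 and 10651 for Myh6 and between 2490 and 2575 for Actc1.

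**Figure D5:**
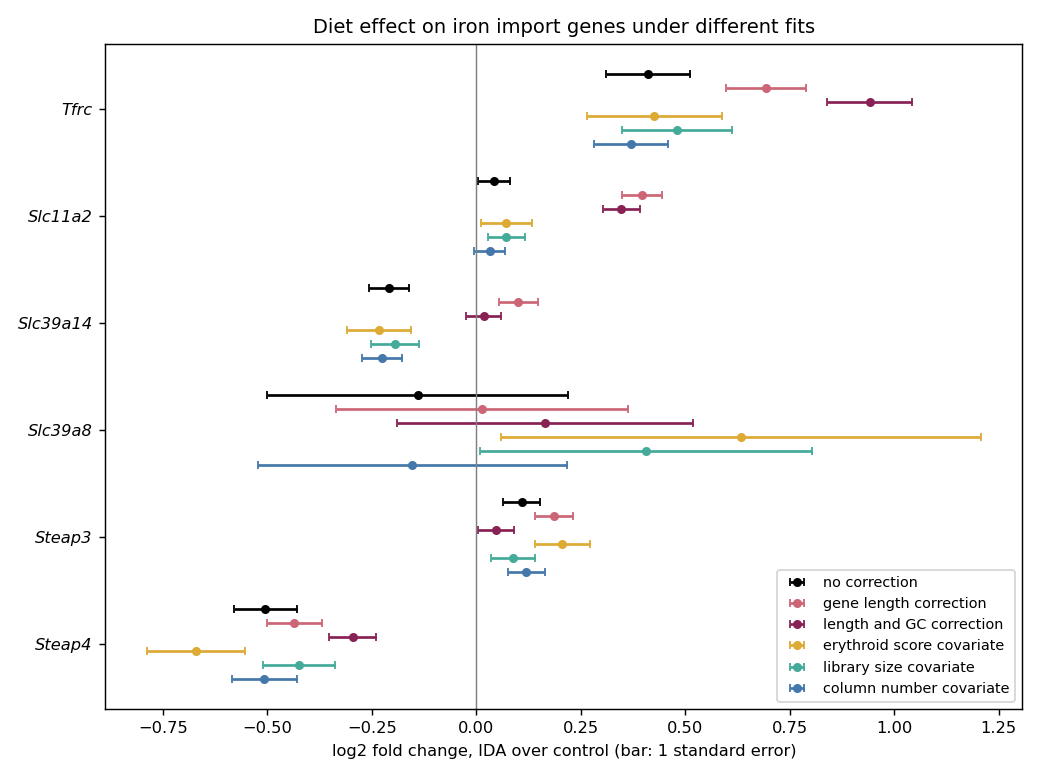
Log2 fold change (IDA over control) of each member under 6 fits, with bars of 1 standard error. Tfrc stays above 0 and Steap4 below 0 in the fits shown, whereas Slc11a2 goes from 0.04 to 0.40 and Slc39a14 from -0.21 to 0.10 with the gene length correction.

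Per kilobase of exonic length, the members can be ranked by level. In control hearts Tfrc had 55.4 ± 10.95 CPM per kb, Slc39a14 39.9 ± 2.08, Steap4 39.8 ± 3.15, Steap3 35.9 ± 1.79, Slc11a2 16.4 ± 0.789 and Slc39a8 1.12 ± 0.769 CPM per kb (SD, n = 10). The ranges of the first 4 overlapped from each to the next, while Slc11a2 and Slc39a8 lay below them with no overlap. In IDA hearts Tfrc had 73.7 ± 10.6 CPM per kb, with its lowest mouse at 59.1, above every other member. Steap3 followed at 38.7 ± 3.00, Slc39a14 at 34.6 ± 3.10 and Steap4 at 28.1 ± 4.51 CPM per kb, again with ranges that overlapped from each to the next. Slc11a2 had 16.9 ± 0.893 and Slc39a8 1.00 ± 0.742 CPM per kb. Steap4 thus passed from the third to the fourth place, behind Steap3. These levels were not corrected for the length trend, and no ranking was made without the trend.

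The members were also compared mouse by mouse, after the mean of each diet was removed, over 20 mice and as a description only, since the mice share depth and length trends. Tfrc and Slc11a2 had r = 0.53, and 0.34 without the length trend. Slc11a2 and Steap4 had r = -0.00, and -0.73 without the length trend. The genes most like Tfrc were Elmo2 (r = 0.76) and Ankzf1 (r = 0.75), and those most like Slc11a2 were Setd1a (r = 0.83) and Eps8l2 (r = 0.81). Without the length trend these values were 0.48, 0.77, 0.75 and 0.56, so that the order depended on the trend. Those for Slc39a14 included Clec16a (r = 0.82) and Sulf2 (r = 0.81), and those for Slc39a8 were Smpd3 (r = 0.88) and Camk1d (r = 0.85). Steap3 was most like Qrsl1 (r = 0.79) and Gm14403 (r = 0.76). With the length trend left in, Steap4 had the closest partners of all members, Tmcc3 (r = 0.95) and Fam13b (r = 0.92). Without the trend these values were 0.85 and 0.89, beside 0.86 for Slc39a8 and Smpd3.

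Hypoxia-inducible factors bind a core of ACGTG, and Tfrc is a known target. In RefSeq promoters (GRCm38.p6, 250 bases before to 50 after each start), these letters on either strand were found in 19.6% of 32851 windows. Both Tfrc windows held the same match, shown because Tfrc was the member with the largest rise, at chr16:32608882-32608911 on the plus strand with the core in capitals:
Tfrc promoter: ctcggtaggtgtACGTGcggaaggaagtga
Of the other members with an entry, Slc39a8 had a match in 1 of 2 windows, Steap3 in 0 of 4 and Steap4 in 0 of 1.

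Of 7 tested partners of the receptor in the transferrin cycle (8 listed), 4 were called higher and 3 lower, and 1 higher and 3 lower with the length trend removed. These counts, and those of the lists that follow, are to be read against the shares of all tested genes called, 35% higher and 32.5% lower, or 31.5% and 23.5% with the length trend removed. The median log2 fold change was 0.12, against 0.02 over all tested genes, and it turned to -0.08, against 0.04, with the length trend removed. Snx3, which sorts the receptor back to the surface, was called higher at 0.15 (edgeR adjusted p = 0.00177) and lower at -0.08 (adjusted p = 0.0468) once the trend was removed. Trf, transferrin itself, rose from 111 ± 6.91 to 141 ± 20.8 CPM (SD, n = 10 each), a log2 fold change of 0.35 (edgeR adjusted p = 7.24e-05) and 0.29 with the length trend removed. Trf exceeded its control mean in all 10 IDA mice. Vps35, of the retromer that recycles endosomal cargo, fell by 0.28, or 0.21 with the length trend removed, and Exoc6, of the exocyst that returns the receptor to the surface, fell by 0.40 in both fits. Tfr2, the second transferrin receptor, was too low to be tested, at 0.283 CPM in control and 0.46 CPM in IDA hearts.

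Among other ferrireductases, 2 of 4 were tested, and Steap2 was called lower, with a median log2 fold change of -0.50 (-0.19 with the length trend removed). Steap2 went from 3.60 ± 1.17 to 1.89 ± 0.611 CPM (SD, n = 10 each), a log2 fold change of -0.91 (edgeR adjusted p = 0.000357), but -0.27 with the length trend removed (adjusted p = 0.241). Steap1 was too low to be tested, at 0.0903 and 0.177 CPM.

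Of the other ZIP transporters, 9 of 12 were tested, and 5 were called higher and 2 lower, or 4 higher and 1 lower with the length trend removed, with medians of 0.096 and 0.07. Those called in the same direction in both fits were Slc39a3 (log2 fold change 0.32), Slc39a5 (0.67), Slc39a7 (0.36) and Slc39a13 (0.30), which rose, and Slc39a10 (-0.81), which fell. Slc39a7 and Slc39a13 release zinc from the secretory pathway, and Slc39a10 imports zinc at the cell surface. Slc39a10 kept a log2 fold change of -0.52 with the length trend removed.

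Of other routes of iron entry, such as calcium channels and lipocalin, 7 of 9 were tested, and 2 were called higher and 4 lower. With the length trend removed 1 was higher and 0 were lower by edgeR, and the median turned from -0.33 to 0.04. The gene called in both fits was Slc22a17, the lipocalin receptor, at 0.36 and 0.29.

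The regulators of import include the iron regulatory proteins IRP1 (Aco1) and IRP2 (Ireb2), which bind iron-responsive elements. Of 8 tested regulators (10 listed), 1 was called higher and 4 lower, and 4 higher and 4 lower with the length trend removed, with medians of -0.06 and -0.02. Aco1 did not pass the test, at 134 ± 4.82 and 135 ± 8.94 CPM (SD, n = 10 each), a log2 fold change of 0.01 (edgeR adjusted p = 0.746), but it was called higher at 0.24 with the length trend removed (adjusted p = 0.00012). Ireb2 fell from 132 ± 15.1 to 81.1 ± 14.0 CPM, a log2 fold change of -0.70 (edgeR adjusted p = 6.44e-07) and -0.34 with the length trend removed, and all 10 IDA mice were below its control mean. Fbxl5, the ligase subunit that marks IRP2 for degradation, fell by 0.32 and by 0.22 in the fits without and with the length correction. Ndfip2, an adaptor of the ligases that degrade DMT1, fell by 0.25 and by 0.29, whereas the ligase Wwp2 rose by 0.25 and 0.48. Nedd4l, another ligase of this family, was called lower at -0.14 and higher at 0.40 once the length trend was removed.

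The totals per library were 6797180 to 8960688 read pairs in control (median 7902932) and 6682177 to 7833916 in IDA mice (median 6806177). After the removal of duplicates, the densest gene of at least 200 bp in each library had 2.06 to 2.39 read pairs per exonic base. No member exceeded 0.656. Tfrc had 1334 to 3226 counts per library.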

How the data were processed

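Poly-A selected RNA of 20 mouse hearts was sequenced as paired 75-base reads. Per the methods and the submitters' processing notes, reads were aligned with STAR to mm10 and duplicates were removed with SAMtools. Raw counts per gene were deposited by the authors, made with featureCounts (v1.4.5-p1, exons, read pairs, unstranded), and the file header states these settings. The deposited table also holds the exonic length of each gene, as another value. No other gene's exon overlapped those of a member.

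Diets were compared with edgeR 4.0.16 (R 4.3.3) by the quasi-likelihood test with TMM scaling, in genes that reached 1 CPM in 10 or more mice, at a Benjamini-Hochberg adjusted p of 0.05, two-sided. In the study 1 library per diet was left out as contaminated, but the labels do not name them, so all 20 were used. CPM are TMM-scaled, and log2 CPM used a prior count of 2. For the length correction, a loess curve (span 0.5, degree 1), fitted in each mouse to the deviations of genes from their mean log2 level against log2 exonic length, was removed as an offset. Ratios and correlations used permutation tests with 100000 resamples (SciPy).

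In addition to the 6 members, values are given for genes of the lists on iron handling that had an adjusted p below 0.05 in the same direction without and with the length correction. These lists are transferrin cycle partners, ferrireductases, ZIP transporters, other entry routes and regulators. Values are also given for Trf, Tfr2, Steap1, Steap2, Aco1 and Ireb2 whatever they were. Genes of the lists of cell type and inflammation markers were counted, and those that met this rule are not named for it. Alas2, Bmp10, Myh6, Actc1, Snx3 and Nedd4l were named after their values were seen. The members and lists were chosen with earlier results of these data known. On simulated counts for 13590 genes with 200 changed, the diet test recovered 70% of log2 changes of 0.4 and 94% of 0.8, and 5.75% of calls were false. A simulated length trend alone gave 6825 calls without and 0 with the correction. No libraries were identical, and the highest r between 2 mice was 0.994. Alternatives were other scalings, DESeq2 1.42.0, other filters, length and GC corrections, covariates, a replicate block, and fits without a mouse of each diet. Some genes are not reported here.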

Additional observations from a re-analysis of the deposited data

Results flagged for a closer look

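In the 12 groups of 10 mice checked (6 members in each diet), 1 value stood apart from its group by Dixon's test at the 95% level. This was Slc39a8 in control replicate 9, at 11.8 CPM, against 5.35 CPM in the next control mouse. Chance marks about 1 in 20 groups in this way. The same mouse had the second highest Bmp10 of all 20, at 62.2 CPM, and whether atrial tissue accounts for its Slc39a8 was not tested.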

How the results depend on the processing

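Steap4 kept its direction and call in 20 of 20 alternatives and Tfrc in 19 of 20. With both the edgeR and the DESeq2 p required to be below 0.01, the log2 fold change of Steap3 (0.11) was no longer called. With the gene length correction, Slc11a2 became called (0.40), and Slc39a14 (0.10) and Slc39a8 (0.014) changed sign without a call. Length and GC corrections together gave 6010 called genes, Slc11a2 0.35, Slc39a14 0.017, Slc39a8 0.16 and Steap3 0.047, the last no longer called. The library size covariate gave Slc39a8 0.41 and Steap3 0.088, the latter no longer called, and the erythroid score gave Slc39a8 0.63 and Steap3 0.21, still called. A replicate block with the length correction gave Slc11a2 0.39 and Slc39a14 0.10.

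The following were added after seeing the data. The lower run of column numbers alone gave 8008 called genes, with 2 members among them. Tfrc at 0.24 and Steap3 at 0.081 were not called there. The higher run alone gave 5906 called genes, with 3 members among them. Slc39a8 at 0.36 and Steap3 at 0.17 were not called there. The members called in each run are to be read against these counts of all called genes. The length correction with the erythroid score gave 5469 genes, Slc11a2 0.48, Slc39a14 0.13 and Slc39a8 0.80. Bmp10 as a covariate gave Slc39a8 -0.57, from which no call is taken because Bmp10 was picked for its match to Slc39a8. With the length correction as well, Slc11a2 was 0.42 and Slc39a14 0.11.

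Leaving out a mouse of each diet (100 pairs) gave 8572 to 9379 genes, Tfrc 0.34 to 0.49, Slc11a2 0.0036 to 0.06, Slc39a14 -0.25 to -0.17, Slc39a8 -0.50 to 0.31, Steap3 0.072 to 0.14 and Steap4 -0.60 to -0.45. The ratio differences were 0.32 to 0.45 for Tfrc over Slc11a2, -0.32 to 0.28 for Slc39a14 over Slc39a8 and 0.56 to 0.70 for Steap3 over Steap4.

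Same-numbered mice of the diets did not deviate together (r from -0.278 to 0.264, over 0.1 in 3 of 10), so the numbers are not taken as pairs. With the replicate block 8912 genes and 4 members were called, with Tfrc at 0.42. Slc39a8 was not tested when 1 CPM was required in all 20 mice. Slc39a8 had 5 to 95 counts per library. Except where stated, the cause of a change between settings was not tested.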
